A study of Mus musculus with 28 samples.

Results

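Magix, Pick1, Nrep and Tpra1 are 4 genes whose probes were among the lowest in mouse muscle without the kinase LKB1, and they were chosen for that difference from the knockout and wild-type values described here. They are 4 of 16593 genes with a named probe on the array, and 6 of its 25697 probes carry their symbols. Pick1 has 3 probes and the others 1 each. The samples are gastrocnemius-plantaris-soleus muscle of FVB female mice aged 4 months, in 4 groups of 7: wild type at rest, wild type taken directly after 15 minutes of contraction driven in situ through the sciatic nerve, and mice lacking LKB1 specifically in skeletal muscle in the same 2 states. All groups share strain, sex, age and muscle. The driver of the knockout and any pooling of animals are not given in the sources used here, and the labels do not say whether samples came from separate animals, so the p-values reflect only how far these samples differ from each other.

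LKB1, encoded by Stk11, is a kinase that activates AMPK and its relatives. AMPK responds in muscle to the energy demand of contraction. The 4 genes belong to no single pathway. MAGIX is an X-linked protein with a PDZ domain, a fold that binds the tails of other proteins. PICK1 joins a PDZ domain to a membrane-curving BAR domain, binds protein kinase C alpha and is best known for the trafficking of glutamate receptors in neurons. NREP, also called P311, is a small protein linked to nerve regeneration and to TGF-beta signalling. TPRA1 is a membrane-spanning protein named for its expression in adipocytes.

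Promoters are shown for the 3 genes matched in the RefSeq promoter table (build GRCm38.p6), because the genes were low in the same group and their upstream letters can be set side by side. Each runs from 250 bases before to 50 bases after the gene's first listed start, 5′ to 3′ on the gene's strand: chrX:7681202-7681501 on the minus strand for Magix, chr15:79228923-79229222 on the plus strand for Pick1 and chr6:88902001-88902300 on the plus strand for Tpra1. Capitals mark matches, on either strand, to the E-box CANNTG, the GC box GGGCGG, the CRE core TGACG, the nuclear receptor element AAGGTCA, the M-CAT element CATTCC and the CCAAT box CCAAT. Matches may overlap.
Magix: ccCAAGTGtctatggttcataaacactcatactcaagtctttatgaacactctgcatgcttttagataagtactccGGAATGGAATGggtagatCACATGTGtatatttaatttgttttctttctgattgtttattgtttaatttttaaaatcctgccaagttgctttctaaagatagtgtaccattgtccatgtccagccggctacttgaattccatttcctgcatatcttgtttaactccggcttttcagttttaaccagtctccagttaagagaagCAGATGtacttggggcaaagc
Pick1: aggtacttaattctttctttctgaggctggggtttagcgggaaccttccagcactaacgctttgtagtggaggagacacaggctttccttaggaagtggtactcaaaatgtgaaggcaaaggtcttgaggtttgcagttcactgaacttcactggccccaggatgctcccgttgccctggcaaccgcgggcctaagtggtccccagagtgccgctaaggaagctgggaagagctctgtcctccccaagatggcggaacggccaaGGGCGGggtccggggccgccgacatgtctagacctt
Tpra1: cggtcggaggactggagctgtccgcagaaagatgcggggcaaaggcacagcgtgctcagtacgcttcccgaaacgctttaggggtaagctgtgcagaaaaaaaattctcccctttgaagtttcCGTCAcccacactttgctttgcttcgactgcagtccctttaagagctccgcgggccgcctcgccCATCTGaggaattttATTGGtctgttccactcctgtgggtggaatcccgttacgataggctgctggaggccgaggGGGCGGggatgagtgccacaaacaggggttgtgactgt
The Magix window held 4 E-boxes and 2 M-CAT elements, of which neighbouring E-boxes and M-CAT elements overlap. The Pick1 window held 1 GC box. The Tpra1 window held 1 E-box, 1 GC box, 1 CRE core and 1 CCAAT box. No motif was found in all 3 of these windows. The table holds a second start for Magix and for Pick1, whose windows held 2 and 3 E-boxes, so each gene had a window with an E-box. The second Pick1 window also held 1 GC box, 1 CRE core and 1 CCAAT box. Among 32851 promoters of the same length, 72.3% held an E-box, 35.7% a GC box, 20.8% a CRE core, 4.72% a nuclear receptor element, 14.7% an M-CAT element and 37.4% a CCAAT box. The first Magix window was 37.3% G or C and its second 54.7%, against a median of 52.7% over all promoters. The first Pick1 window and that of Tpra1 were each 56.3%, and the second Pick1 window 61.3%.

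Probe levels are normalized intensities, linear values per probe; levels of different probes are not comparable with each other. Differences are on the log2 scale after the normexp background step, so those of dim probes are understated. Of the 25697 probes, 11731 exceeded an intensity of 23.8 on at least 7 arrays and were tested, including 5 of the 6 probes of the 4 genes. The third Pick1 probe (ILMN_3092815) never exceeded 22.1 and was above that limit on 0 of 28 arrays, so it gave no measurement of Pick1. Stk11 (ILMN_2591570) checked the genotype labels: its intensities were 1019 to 1514 in resting and 1018 to 1406 in contracted wild type, and 301 to 563 in resting and 335 to 554 in contracted knockout. All 7 knockout samples lay below all 7 wild-type samples in both states. The resting difference in Stk11 was -1.36 log2 (SE 0.12), with a limma adjusted p of 1.42e-07. That of contracted muscle was -1.48 (SE 0.12), with a limma adjusted p of 2.20e-08.

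Knockout sample 7 stood apart from the other knockout samples in both states and bears on every result below. Its Stk11 intensity was 528 at rest and 499 after contraction, inside the knockout range. Over the 902 probes called between genotypes at rest without it, it showed a median of 17.6% of the difference of the others, and over the 2197 called after contraction -5.08%. The other knockout samples, each treated in the same way, showed medians of 66.7% to 140% at rest and 71.3% to 135% after contraction. The genotype differences, the calls of the gene lists and neighbours and the spread are therefore also given without both samples 7, a choice made after seeing the data.

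**Figure D1:**
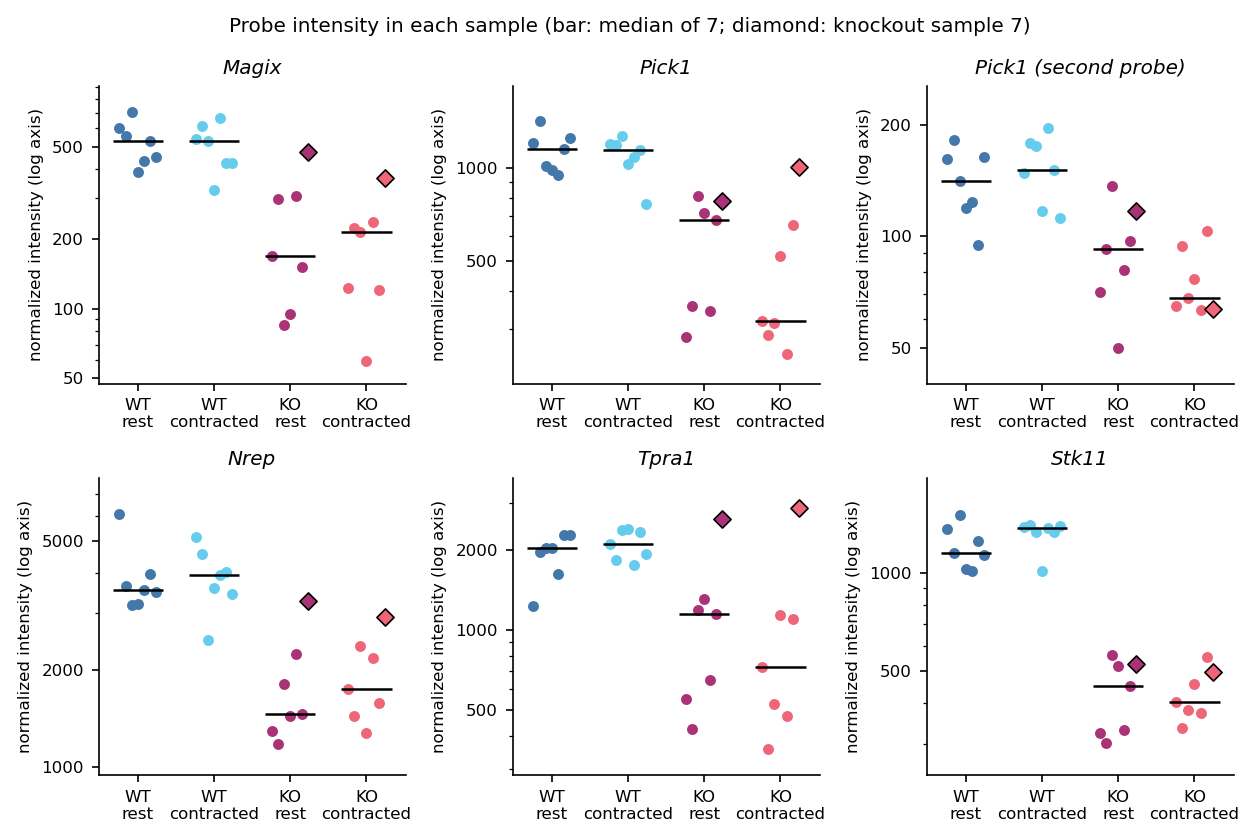
Normalized intensity (log axis) of the 5 measured probes of the 4 genes and of Stk11 in each of 28 samples, by group, in order of replicate number; bars are medians of 7 and diamonds mark knockout sample 7. Sample 7 is the highest knockout sample for Tpra1, Magix and Nrep in both states, while its Stk11 stays in the knockout range.

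Magix (ILMN_2705203) was low in most samples of the knockout in both states. Its intensities were 388 to 701 in resting wild type (median 530) and 323 to 663 in contracted wild type (median 528). They were 85.3 to 474 in resting knockout (median 169) and 59.4 to 366 in contracted knockout (median 214). At rest 6 of 7 knockout samples lay below every wild-type sample, and 6 of 7 after contraction; the exception was sample 7, at 474 and 366. The mean difference was -1.10 log2 at rest (SE 0.24) and -1.17 after contraction (SE 0.24). These correspond to 46.7% and 44.4% of the wild-type level on the normexp scale. The offset added there makes the falls smaller than in the intensities above. Without sample 7 the differences were -1.26 and -1.31, and all 6 others were below every wild-type sample in both states, as held for 1.29% of the tested probes at rest and 2.85% after contraction.

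Pick1 was read by a bright and a dim probe. Both had lower means in knockout, but they did not give the same picture sample by sample. On the bright probe (ILMN_2628488) intensities were 947 to 1412 in resting wild type (median 1145) and 763 to 1267 in contracted wild type (median 1138). In knockout they were 283 to 809 at rest (median 675) and 251 to 1006 after contraction (median 320). All 7 resting knockout samples were below all resting wild-type samples, which held for 0.358% of the tested probes; after contraction sample 7, at 1006, was inside the wild-type range. The resting knockout values fell into separate ranges, with samples 1, 2 and 5 at 283, 356 and 345 and samples 3, 4, 6 and 7 between 675 and 809. The difference was -0.99 log2 at rest (SE 0.23) and -1.19 after contraction (SE 0.23), and without sample 7 it was -1.08 and -1.37.

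On the dim Pick1 probe (ILMN_1246720) intensities were 94.7 to 182 in resting wild type (median 141.0) and 112 to 196 in contracted wild type (median 151). In knockout they were 50.1 to 137 at rest (median 92.4) and 63.1 to 104 after contraction (median 68.2). The groups overlapped at rest, where 4 of 7 knockout samples were below all wild-type samples, and did not overlap after contraction, as for 0.631% of the tested probes. Contracted knockout sample 7 read 63.7 on this probe, near the bottom of its group, and 1006 on the bright probe, the top of its group. The difference was -0.37 log2 at rest (SE 0.11) and -0.59 after contraction (SE 0.11), and without sample 7 it was -0.41 and -0.57. With all samples this probe ranked 771 at rest and 313 after contraction from the lowest difference among 11731 tested probes.

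Nrep (ILMN_2680054) had intensities of 3178 to 6077 in resting wild type (median 3536) and 2481 to 5181 in contracted wild type (median 3945). They were 1177 to 3273 in resting knockout (median 1454) and 1268 to 2916 in contracted knockout (median 1736). In each state 6 of 7 knockout samples were below every wild-type sample, and sample 7, at 3273 and 2916, was not. The difference was -1.11 log2 at rest (SE 0.20) and -1.01 after contraction (SE 0.20). These correspond to 46.3% and 49.8% of the wild-type level on the normexp scale. Without sample 7 it was -1.26 and -1.11.

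Tpra1 (ILMN_2440066) varied most among the knockout samples. Its intensities were 1230 to 2291 in resting wild type (median 2030) and 1757 to 2396 in contracted wild type (median 2103). In resting knockout samples 1, 2 and 5 read 549, 425 and 651, samples 3, 4 and 6 read 1192, 1310 and 1151, and sample 7 read 2611. In contracted knockout the lowest was 356, the median 723 and the highest, again sample 7, 2891. Sample 7 thus exceeded all 7 wild-type samples in each state, while 5 of 7 resting and 6 of 7 contracted knockout samples lay below every wild-type sample. The difference was -0.92 log2 at rest (SE 0.33) and -1.27 after contraction (SE 0.33), and without sample 7 it was -1.15 and -1.55.

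These values describe the contrast on which the genes were chosen and carry no test. For scale, 183 of 11731 tested probes were called lower in knockout at rest (1.56%; limma, adjusted p under 0.05) and 441 after contraction (3.76%); without both knockout samples 7 the counts were 652 (5.56%) and 1184 (10.1%). Among 8397 genes, each by its brightest probe, Nrep, Magix, Pick1 and Tpra1 ranked 12, 14, 19 and 29 from the lowest difference at rest and 24, 13, 12 and 7 after contraction. Snai3, a Snail-family repressor, was the lowest in both states, at -2.02 and -2.11. In bulk muscle fewer cells of a type and less RNA per cell cannot be told apart.

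**Figure D2:**
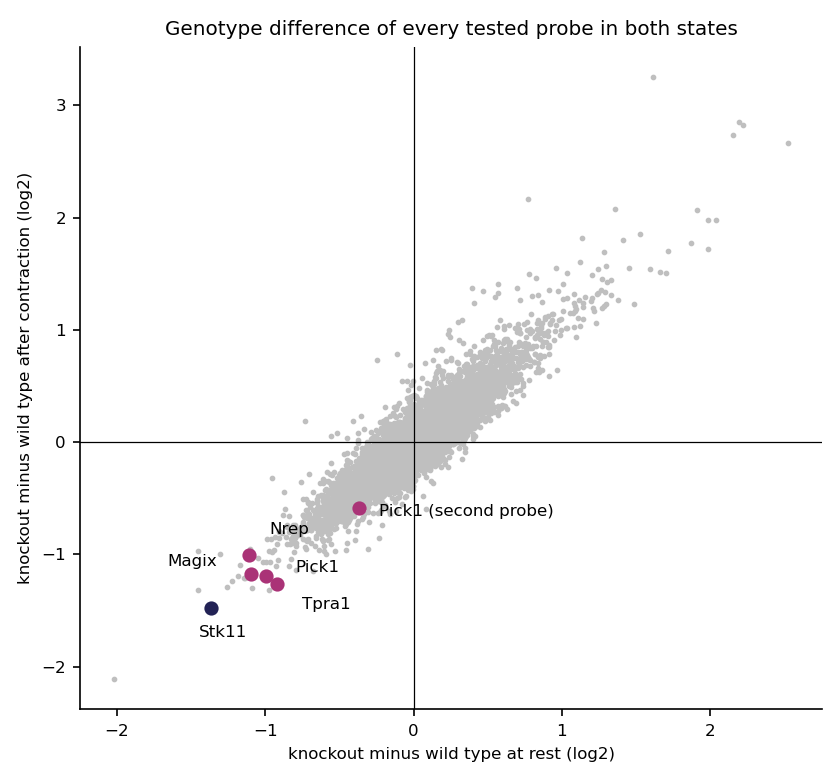
Knockout minus wild type (log2) after contraction against that at rest, for all 11731 tested probes (grey), the 5 measured probes of the 4 genes (purple) and Stk11 (dark blue). The brightest probes of the 4 genes lie at -0.92 to -1.11 at rest and -1.01 to -1.27 after contraction, and the second Pick1 probe at -0.37 and -0.59.

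Relative to the mean of the other 6 knockout samples, sample 7 showed 8.02% of the resting Magix difference and 27.6% of the contracted one. For Nrep the shares were 16.0% and 33.7%, and for the bright Pick1 probe 45.5% and 7.08%. On the dim Pick1 probe they were 38.2% and 124%. For Tpra1 they were -39.4% and -29.1%, the sign being that of a level above wild type. For Stk11 they were 76.8% and 84.5%. Sample 7 was thus closer to wild type than the mean of the other knockout samples on the brightest probe of each gene. This did not hold on the dim Pick1 probe after contraction. On the bright Pick1 probe at rest, sample 3 was closer still, with a share of 40.7%.

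**Figure D3:**
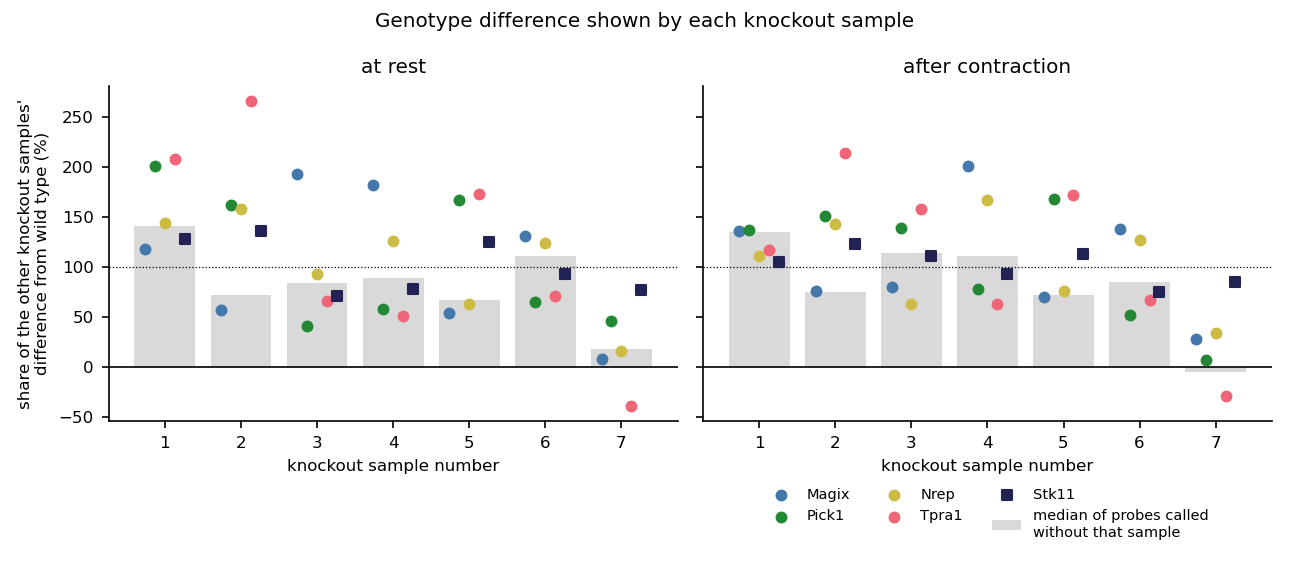
Share (%) of the other knockout samples' difference from wild type shown by each knockout sample, at rest and after contraction; points are genes (bright Pick1 probe) and grey bars the median of probes called without that sample. Sample 7 shows 76.8% and 84.5% for Stk11 but between -39.4% and 45.5% for the 4 genes.

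Fast-fibre genes, 9 of 9 above the dim limit, summed to 229278 to 305320 in every sample, so the defining markers of the labelled muscle were present. Markers of other cells and fibre states differed among the knockout samples. Of 9 listed satellite cell and regenerating muscle genes, 8 had a probe and 5 were above the dim limit (Myog, Ncam1, Chrna1, Chrng and Myh8), while Myf5, Myod1 and Pax7 were not. Ncam1, a neural cell adhesion molecule, and Chrng, the fetal acetylcholine receptor subunit, rose in knockout at rest (1.53 and 1.59 log2, limma adjusted p = 0.0191 and 0.0446), and these and Chrna1 rose after contraction. Without both samples 7, 4 of the 5 rose in each state. Their summed intensity was 568 to 1726 in wild type, 1085 to 1704 in knockout samples 2, 5 and 7 at rest and 6023 to 7801 in resting samples 1, 3, 4 and 6. After contraction it was 1217 to 2366 in samples 2, 5 and 7 and 4556 to 9616 in the other knockout samples. Resting Magix was 296, 306 and 474 in samples 2, 5 and 7 and at most 169 in the others. After contraction it was 223, 237 and 366 in samples 2, 5 and 7, and sample 3 was close to them at 214. Bright Pick1 and Tpra1 had another order, being lowest at rest in samples 1, 2 and 5. The part of these markers in the differences was not tested.

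Slow-fibre genes, all 8 with a probe being above the limit, summed to 33578 in contracted wild-type sample 4, 21166 in resting knockout sample 4 and 56488 in contracted knockout sample 4, against 112457 to 205530 in all other samples. Without those 3 samples the Magix difference was -0.98 at rest and -1.11 after contraction, and that of Tpra1 was -0.99 and -1.31. Lymphocyte genes, with 6 above the limit and Ms4a1 and Ptprc not, ranged from 286 to 4732 in resting and 473 to 15016 in contracted wild type, and from 607 to 7331 and 799 to 14930 in knockout. In 5 samples the mean log2 level of these genes was over 1 above the average sample. Without them the Nrep difference was -1.14 and -1.07 and that of the bright Pick1 probe -1.14 and -1.16. Under both of these omissions the genotype differences of all 5 tested probes of the 4 genes moved by less than the spread between replicates.

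Adipocyte genes, with 5 above the limit and Fabp4 and Retn not, summed to 338 to 3593 in wild type. In knockout they summed to 3306 and 3288 at rest and 5753 and 7774 after contraction in samples 2 and 5, and to 171 to 1721 in the other knockout samples of both states. None of the 5 was called between genotypes. Of the other lists, Uchl1 of the neuron and Schwann cell list rose in both states (1.14 and 1.24 log2, limma adjusted p = 0.0234 and 0.00746). Only 4 of the 12 genes of that list were tested, with medians of -0.16 and -0.23. Mbp, Pmp22 and Cnp were lower in both states and not called. After contraction the fibroblast gene Lum (1.12, limma adjusted p = 0.0256) and the macrophage gene Mrc1 (0.90, limma adjusted p = 0.0319) rose. No other of the 7 fibroblast and 5 macrophage genes was called then, and none at rest. The medians of these lists were 0.46 and 0.52, and the macrophage gene Cd14 was at -0.18. Without both samples 7, 2 macrophage genes rose in each state, and 1 fibroblast gene at rest and 2 after contraction. Of 7 smooth muscle and pericyte genes, 2 then fell at rest and 1 after contraction. Of 7 endothelial genes, 1 fell after contraction. With all samples neither list had a call, and medians were -0.19 and -0.21 in each state. Without samples 7, 1 slow-fibre gene rose after contraction, and no call of the remaining lists changed. Shares over all genes are given below. The part of these cells in the values of the 4 genes was not tested.

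The study asked how LKB1 bears on the response to contraction, and this contrast was not used to choose the genes. None of their 5 tested probes was called for contraction in wild type, where 0 of 11731 probes were called (0%; limma, 139 at an unadjusted p under 0.05). None was called in knockout, where 1 probe was (0.00852%; 211 unadjusted), that of the sphingosine kinase gene Sphk1, named after its value was seen (1.25 log2, SE 0.18, limma adjusted p = 0.00181). With the replicate number as a block 55 probes were called in knockout and none of the 5 was among them. Magix differed by -0.06 log2 between contracted and resting wild type (95% interval -0.55 to 0.44) and by -0.13 in knockout (-0.63 to 0.36). Bright Pick1 differed by -0.05 (-0.52 to 0.41) and -0.25 (-0.72 to 0.21), Nrep by 0.01 (-0.40 to 0.42) and 0.11 (-0.30 to 0.53), and Tpra1 by 0.14 (-0.53 to 0.81) and -0.21 (-0.87 to 0.46). These intervals, and the counts without the block, take the samples as unpaired, although same-numbered knockout samples deviated together. Two-sided exact permutation p-values for the 10 comparisons, also unpaired, were 0.253 to 0.961. Taken in same-number pairs, knockout Magix was lower after contraction in all pairs but 1, with differences from -0.33 to 0.84, the highest being that of sample 3. An exact permutation of the signs of the 7 pair differences gave p = 0.469 for Magix in knockout, 0.234 for bright Pick1, 0.328 for dim Pick1, 0.25 for Nrep and 0.297 for Tpra1, a test added after seeing the data whose smallest p is 0.0156.

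The genotype difference in the contraction response was made from contrasts behind the choice and is described only. It was -0.07 log2 for Magix (95% interval -0.77 to 0.62), -0.20 for bright Pick1 (-0.86 to 0.46), 0.10 for Nrep (-0.48 to 0.69) and -0.35 for Tpra1 (-1.29 to 0.60). No probe of the array was called for it (0 of 11731; limma, 72 at an unadjusted p under 0.05). Each of these intervals includes 0.

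Resting and contracted knockout samples were compared by number. Across the 7 numbers, Nrep correlated at Pearson r = 0.869 (exact permutation p = 0.00972, adjusted 0.0595; Spearman rho = 0.786, exact p = 0.0480) and Magix at r = 0.759 (exact permutation p = 0.0516, adjusted 0.172; rho = 0.786, exact p = 0.0480). Leaving out the 2 samples furthest from the resting median gave r = 0.677 and 0.427, so the Magix relation rests on them. Dim Pick1 showed no such likeness in knockout (r = -0.044, exact permutation p = 0.929). Nrep ranked alike in wild type too (r = 0.741, exact permutation p = 0.0879; rho = 0.929, exact p = 0.00675, adjusted 0.0675). None of 10 such relations passed after adjustment. Tpra1 correlated at r = 0.874 in knockout (exact permutation p = 0.0119, adjusted 0.0595). Bright Pick1 correlated at r = 0.669 (exact permutation p = 0.0982, adjusted 0.196). Leaving out the 2 samples furthest from the resting median gave 0.503 and 0.523. The resting knockout values of both genes fell into separate ranges, which alone can give a high r. For bright Pick1, Tpra1 and Magix, knockout sample 3 differed most between states: its bright Pick1 intensity was 809 at rest and 315 after contraction, its Tpra1 intensity 1192 and 526, and its Magix intensity 85.3 and 214.

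**Figure D4:**
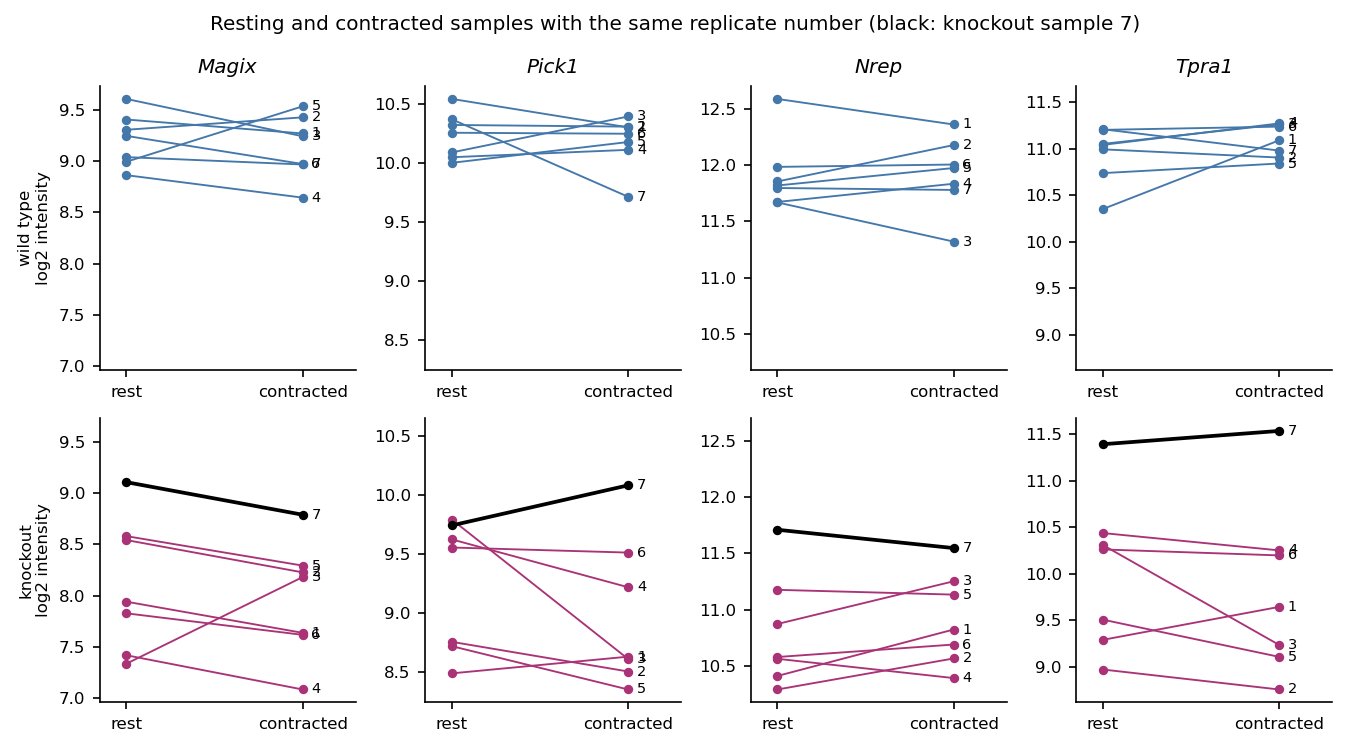
Log2 intensity at rest and after contraction, joined by replicate number, for the brightest probe of each gene in wild type (upper row) and knockout (lower row); black marks knockout sample 7. Knockout sample 7 stays the highest at both ends for Magix, Nrep and Tpra1, and sample 3 crosses others for Pick1 and Tpra1.

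The spread among knockout samples was compared with that among wild-type samples by an exact permutation test of absolute deviations from the group median. The SD of log2 Tpra1 was 0.83 in knockout and 0.30 in wild type at rest (exact permutation p = 0.0839, adjusted 0.273), and 0.94 and 0.18 after contraction (exact permutation p = 0.00641, adjusted 0.0641). For Magix it was 0.66 and 0.26 at rest and 0.56 and 0.31 after contraction, and for bright Pick1 0.56 and 0.20, then 0.64 and 0.22. Nrep had 0.50 and 0.32, then 0.41 and 0.33. None of the 10 comparisons passed after adjustment. Without both samples 7, 2 passed: bright Pick1 at rest (SD 0.56 in knockout and 0.20 in wild type, exact permutation adjusted p = 0.00583) and Tpra1 after contraction (0.61 and 0.18, exact permutation adjusted p = 0.0175), while the SD of Nrep was 0.32 in both genotypes at rest and 0.33 in both after contraction. A group of 7 always holds a deviation of 0 from its own median and a group of 6 need not, so these tests are not on the same footing. The residual SD of Tpra1 exceeded that of 96.9% of the tested probes, that of Magix 91.3%, that of bright Pick1 89.5%, that of Nrep 84.2% and that of dim Pick1 31.9%.

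The genes did not all follow one another among the knockout samples. Samples 1, 2 and 5 were the lowest at rest for both bright Pick1 and Tpra1, and Stk11 was also lowest there, at 324, 301 and 332 against 452 to 563 in the others. Magix had another order, being lowest at rest in samples 3 and 4 (85.3 and 94.9). Of 40 relations among the 4 genes and Stk11 within the 4 groups, none passed after adjustment (exact permutation, lowest adjusted p = 0.0595). In knockout, Pearson r at rest and after contraction was 0.967 and 0.869 for bright Pick1 with Stk11. It was 0.870 and 0.955 for bright Pick1 with Tpra1, and 0.884 and 0.823 for Tpra1 with Stk11. Adjusted exact permutation p-values of these pairs were 0.0595 to 0.116. At rest the values of these 3 genes lay in separate ranges of fewer than 6 samples, which alone can give a high r. In wild type the same pairs had r from -0.568 to 0.263. Magix with Stk11 had r = 0.936 in resting wild type (exact permutation p = 0.00298, adjusted 0.0595) and 0.745 in contracted wild type. Without the 2 samples furthest from the Magix median these were 0.853 and 0.332. In knockout r for Magix with Stk11 was -0.363 at rest and -0.226 after contraction.

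**Figure D5:**
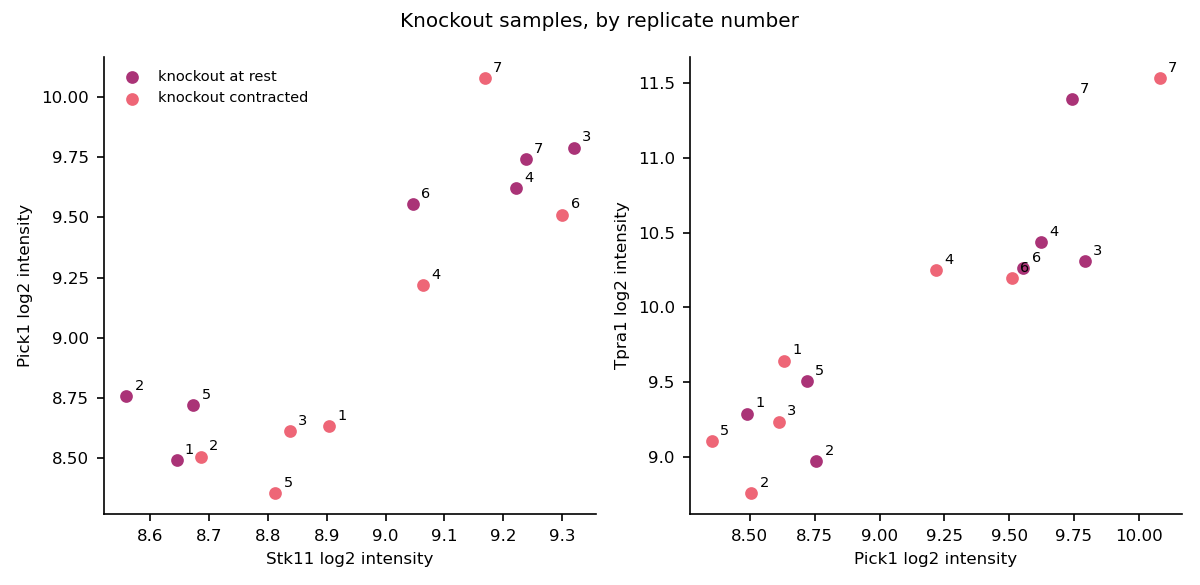
Log2 intensity of Pick1 (bright probe) against Stk11 and of Tpra1 against Pick1 in the 14 knockout samples, labelled by replicate number. At rest samples 1, 2 and 5 are low in all 3 genes, and sample 7 is the highest for Tpra1 in both states.

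For each gene, the genes most like it were found by Pearson r over 28 samples after removal of the 4 group means, as a description in which points share arrays and normalization and the knockout samples spread more widely. Magix was most like Wnt4, a secreted Wnt ligand (r = 0.897), Fgf6, a growth factor of muscle (0.865), and Usp2, a deubiquitinating enzyme (0.857). Pick1 was most like Csnk2a2, a catalytic subunit of casein kinase 2 (0.942), BC005624 (0.940) and Mrpl2, a mitochondrial ribosomal protein (0.935). Nrep had weaker partners in Rtn2, a reticulon (0.719), Kptn (0.708) and Rdm1 (0.691). Tpra1 was most like Trim54, a muscle RING-finger protein (0.918), Trap1, a mitochondrial chaperone (0.903), and Chchd10, a mitochondrial protein (0.902). Over the 14 wild-type samples alone r was 0.868 for Magix with Wnt4, 0.702 for Pick1 with Csnk2a2, 0.576 for Pick1 with Mrpl2, 0.608 for Nrep with Rtn2 and 0.546 for Tpra1 with Trim54.

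From 0 to 3 genes of each list of related roles were called between genotypes in a state with all samples in. Leaving out both knockout samples 7 changed the counts of every such list but that of the LKB1 complex and AMPK family. Of 19 tested PDZ scaffold genes, 2 rose and 0 fell in each state, with a median of 0.05 log2 at rest and 0.04 after contraction against -0.01 over all genes in each state. They were Mpp1, a membrane-associated scaffold of the guanylate kinase family (0.60 and 0.62, limma adjusted p = 0.0482 and 0.0242), and Pdlim3, a Z-disc protein (0.70 and 0.86, limma adjusted p = 0.0151 and 0.00224). Over all 8397 genes, 150 rose (1.79%) and 154 fell (1.83%) at rest, and 354 (4.22%) and 347 (4.13%) after contraction. Without both samples 7, 5.44% rose and 6.29% fell at rest, and 9.87% and 10.9% after contraction. Of the PDZ genes 3 then rose and 0 fell at rest, and 3 rose and 2 fell after contraction, the 2 being Gipc1 (-0.94, limma adjusted p = 0.0180) and Slc9a3r2 (-0.51, limma adjusted p = 0.0424). Of 16 PICK1 partners and BAR-domain genes, Bin1, a BAR protein of muscle membrane tubules, rose at rest (0.53, limma adjusted p = 0.0278), and none was called after contraction (Bin1 0.38, limma adjusted p = 0.0730). Without both samples 7 Bin1 alone was called at rest, and after contraction 3 rose, Bin1 (0.47, limma adjusted p = 0.00576), Sh3glb1 and Arpc5, and 1 fell, Sh3glb2.

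Of 21 TGF-beta pathway genes, 0 were called at rest and 2 after contraction: Bgn, a matrix proteoglycan, rose (0.69, limma adjusted p = 0.0220) and Smad6, an inhibitory SMAD, fell (-0.33, limma adjusted p = 0.0163). When both samples 7 were left out, Bgn and Tgfbr3 rose and Smad6 and Acta2 fell at rest, and Bgn, Tgfbr1 and Ccn2 rose and Smad6 fell after contraction. Of 10 Hedgehog and cAMP genes, 0 were called at rest and Prkar1a, a regulatory subunit of protein kinase A, rose after contraction (0.58, limma adjusted p = 0.0250). With both samples 7 left out, Prkar1a rose and Adcy9, an adenylyl cyclase, fell in both states, and Gnai2, an inhibitory G-protein subunit, rose after contraction. Of 16 genes of the LKB1 complex and AMPK family, Stk11 fell in both states, and the AMPK subunit genes Prkab2 (-0.71, limma adjusted p = 0.0108) and Prkag1 (-0.41, limma adjusted p = 0.0185) fell after contraction, and the same genes were called without both samples 7.

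The tested genes nearest to the 4 on their chromosomes, 24 by RefSeq gene order in GRCm38.p6, were compared as well. Of them 12.5% were called at rest and 8.33% after contraction, against 3.62% and 8.35% of all genes. Slc16a8, beside Pick1 on chromosome 15, fell in both states (-0.49 and -0.52, limma adjusted p = 0.00727 and 0.00242). Plp2, beside Magix on chromosome X, rose in both (0.63 and 0.60, limma adjusted p = 0.00649 and 0.00426), and Bin1, near Nrep, rose at rest. No tested neighbour of Tpra1 was called. Leaving out both samples 7, 3 neighbours were called at rest and 6 after contraction, Mcm2 beside Tpra1 among the 6 (-0.32, limma adjusted p = 0.0352), against 11.7% and 20.7% of all genes.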

How the data were processed

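Muscle RNA from 28 samples was labelled with biotin and hybridised to an Illumina bead array, per the labels' protocols. Samples were grouped by their titles. The authors deposited normalized intensity values for 25697 probes; 27.2% are below 0, so background had been subtracted. Another deposited table pairs intensity before normalization with detection p-values. Its 7 columns that match labels set the dim limit, and its other 21 intensity columns could not be assigned to samples and were not used. Per the submitters' processing notes, which give no roles, the authors' tools included lumi 3.0, limma 3.1 and R 3.1.2.

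The deposited intensity values were passed through normexp with an offset of 50 and converted to log2. Probes above the dim limit of 23.8 (read at a detection p-value of 0.05) on at least 7 arrays were fitted with limma 3.58.1 in R 4.3.3, all 4 groups sharing 1 variance per probe, with Benjamini-Hochberg adjustment over all 11731. Of the deposited probes, 23978 had 1 symbol, 1719 none and 0 several; symbols came from the platform annotation, updated by gene ID. Exact permutation tests went through all arrangements in Python 3.11.15 with numpy 2.4.6, and the ranks for Spearman rho came from scipy 1.17.1. The smallest p for 7 against 7 is 0.000583. Genes of the lists named because they were called without samples 7 were named after their values were seen. The scripts were tested on simulated data. The number of arrays limits the precision, and no slide or scan batch was given.

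Same-numbered resting and contracted samples deviated together in knockout (r = 0.369 to 0.848 over probes, all 7 above the 0.1 asked for). In wild type r was -0.057 to 0.522. The main contraction fit, its intervals and its calls nevertheless took all samples as unpaired. Pairing by number entered only through the replicate block and, in knockout, the permutation of signs. The members and lists were chosen with earlier results of these data known. Named genes were the members with Stk11, up to 4 called genes per list, the 3 genes most like each member, the largest falls and called neighbours. Alternatives changed the offset, background step, dim filter, fitted samples, array weights, probe per gene, replicate block, measures of spread and likeness, and left out each sample in turn.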

Additional observations from a re-analysis of the deposited data

Results flagged for a closer look

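Among 24 groups of 7 checked (the 5 tested probes of the 4 genes and Stk11, in 4 groups), 3 had an end sample whose gap to the next, divided by the group's range, was above Dixon's 95% critical value. Chance flags about 1 in 20 groups. Resting wild-type sample 1 was high for Nrep, at 6077 against at most 3974 in the others (0.657). Contracted wild-type sample 7 was low for the bright Pick1 probe, at 763 against at least 1028 (0.585), and it was also the contracted wild-type sample highest in summed lymphocyte markers, at 15016. Contracted wild-type sample 4 was low for Stk11, at 1018 against at least 1343 (0.857), and it was the wild-type sample lowest in slow-fibre markers, at 33578. Whether these markers had a part in the values was not tested.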

How the results depend on the processing

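Over the member probes, 543 of 545 differences under the alternatives were rated as unchanged. For contraction this meant only that the call stayed the same, whatever the size of the move. For the genotype differences and the difference of responses it meant a move smaller than the spread between replicates. The other 2 were the dim Pick1 probe without normexp, at -0.64 at rest and -1.01 after contraction. Of the 545, 17 differences that were not called changed sign. Counts over all probes moved more. Probes called lower in knockout at rest went from 183 to 116 without the dim filter, 119 with only the 2 groups compared, 566 with array weights and 652 without both knockout samples 7, and from 55 to 435 with each sample left out. After contraction 441 became 1805 with array weights, 1184 without both knockout samples 7, and 244 to 1112 with each sample left out. The lowest counts came without knockout sample 1 (55 and 244) and the highest without knockout sample 7 (435 and 1112). Leaving out both knockout samples 7, and the samples low in slow-fibre or high in lymphocyte markers, was chosen after seeing the data. For contraction in knockout the count of 1 became 3 without normexp, 55 with the replicate block, 55 with array weights, 0 with only the 2 groups compared, 2 without both knockout samples 7, 0 without the samples low in slow-fibre markers, and 1 to 8 with each sample left out. In wild type the replicate block gave 1 in place of 0, and array weights gave 1 call for the difference of responses in place of 0. A random replicate block gave 245 and 523 probes lower in knockout; the block changed no other call. Among member tests, the count of spreads called went from 0 to 1 without normexp, to 4 with the log ratio of SDs, to 2 without both knockout samples 7, and to 0 to 4 with each sample left out (4 without resting knockout sample 3, 4 or 6); that of same-number relations to 0 to 2 (2 without sample 3), and that of relations between genes to 0 to 3 (3 without resting knockout sample 2 or 3). The causes were not tested.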
